A study of Homo sapiens with 12 samples.

Results

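The collagen genes are the protein-coding genes whose symbol is COL, a number, A and a number, from COL1A1 to COL28A1; each encodes 1 alpha chain of a collagen. They were found by symbol after the Ensembl identifiers of the count files were matched to GENCODE 29, which gave 44 genes of the 58347 in the files, 19835 of them protein-coding. RNA came from A375, a single established human melanoma line with a BRAF mutation, grown in dishes and exposed for 8 h to the vehicle DMSO, to tretinoin, to vemurafenib or to both drugs (the combination), with 3 samples in each of the 4 groups and 5 µM listed for every group, the vehicle included. Vemurafenib inhibits mutant BRAF kinase and thereby the signal to the kinase ERK, and tretinoin is a retinoid that binds retinoic acid receptors. The labels say that treatments were applied in triplicate and not that the 3 samples came from separate cultures, so p-values measure the spread between these samples, which may be technical.

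Collagen chains assemble in threes into a triple helix of repeated Gly-X-Y units, in which hydroxylated proline holds the helix together. Fibrillar collagens form the cables of skin, bone and cartilage, fibril-associated collagens sit on their surface, and type IV collagen forms the network of basement membranes. Other classes form beaded filaments (type VI), short-chain networks (types VIII and X), anchoring fibrils (type VII), cell surface proteins (types XIII, XVII, XXIII and XXV) or proteins from which endostatin-like fragments are cut (types XV and XVIII). In melanoma, collagen comes both from the tumour cells and from stromal fibroblasts.

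Total counts per sample ranged from 13510235 to 21534377. Of the 44 collagen genes, 31 passed the filter on low counts, among 16740 genes that did. Levels are given as CPM, counts put on a common library size and scaled by the trimmed mean of M values (TMM), and changes as log2 fold changes with their standard error (SE) and an adjusted p from edgeR's quasi-likelihood test, corrected over all 16740 genes and called below 0.05. The listed ERK target genes, DUSP6, SPRY2, SPRY4, ETV4, ETV5 and FOSL1, fell in 6 of 6 cases with vemurafenib and with the combination, and 4 of 6 listed retinoid targets (CYP26B1, DHRS3, STRA6 and TGM2) rose with tretinoin. The melanocyte lineage regulator MITF was read at 13.4 to 33.1 CPM and S100B at 6.16 to 10.4 CPM, whereas SOX10 was listed at 0 in all 12 libraries and TYR in 11 of them. TYR shares no exon bases with another gene, and SOX10 shares 2.4% of its own with another gene, most with POLR2F on the other strand. Whether the counting, which ignored strand, has a part in the readings of these genes was not tested. Tretinoin replicate 1 stood apart from the other libraries of its group, with a chi-square per degree of freedom of 21.5 and 24.5 against replicates 2 and 3, where these differed from each other by 2.69. A lower level in a bulk sample cannot be told apart between fewer cells of a type and less RNA per cell.

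A375 cells carried mostly the RNA of a few collagens. Per kilobase of exon, the order of the mean level over all 12 samples was COL9A3, COL6A1, COL4A2, COL6A2 and COL5A3, followed by COL5A2, COL4A1 and COL18A1. COL9A3, a chain of the fibril-associated type IX, read 92.0 ± 4.79 CPM per kilobase in DMSO (SD, n = 3), COL6A1 66 ± 0.46, COL4A2 37.8 ± 1.68, COL6A2 34.6 ± 1.12 and COL5A3 27.3 ± 2.65, so that COL4A2 and COL6A2 differed by little more than their spread. With the longest transcript in place of all exons as the length, COL4A2 moved to the second place and COL4A1 to the fifth. The 7 chains with the largest share of the summed collagen CPM held 89.1 to 90.6% of it in every sample. That sum was 2658 ± 76.7 CPM in DMSO, 2792 ± 187 with tretinoin, 2624 ± 94.8 with vemurafenib and 2569 ± 145 with the combination (SD, n = 3), with overlapping samples in each pair of groups tested. The smallest of the exact two-sided permutation p-values for the sum was 0.2, where 3 samples against 3 cannot give less than 0.1. As a share of all counts, with no TMM scaling, collagens made up 0.247 ± 0.012% in DMSO, 0.272 ± 0.010% with tretinoin, 0.278 ± 0.012% with vemurafenib and 0.267% with the combination (SD, n = 3 where given), and the tretinoin and vemurafenib samples lay above all DMSO samples (exact two-sided permutation p = 0.1 for each). For vemurafenib and the combination the direction of the sum thus depended on the scaling, whereas the tretinoin mean was above DMSO under both.

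**Figure D1:**
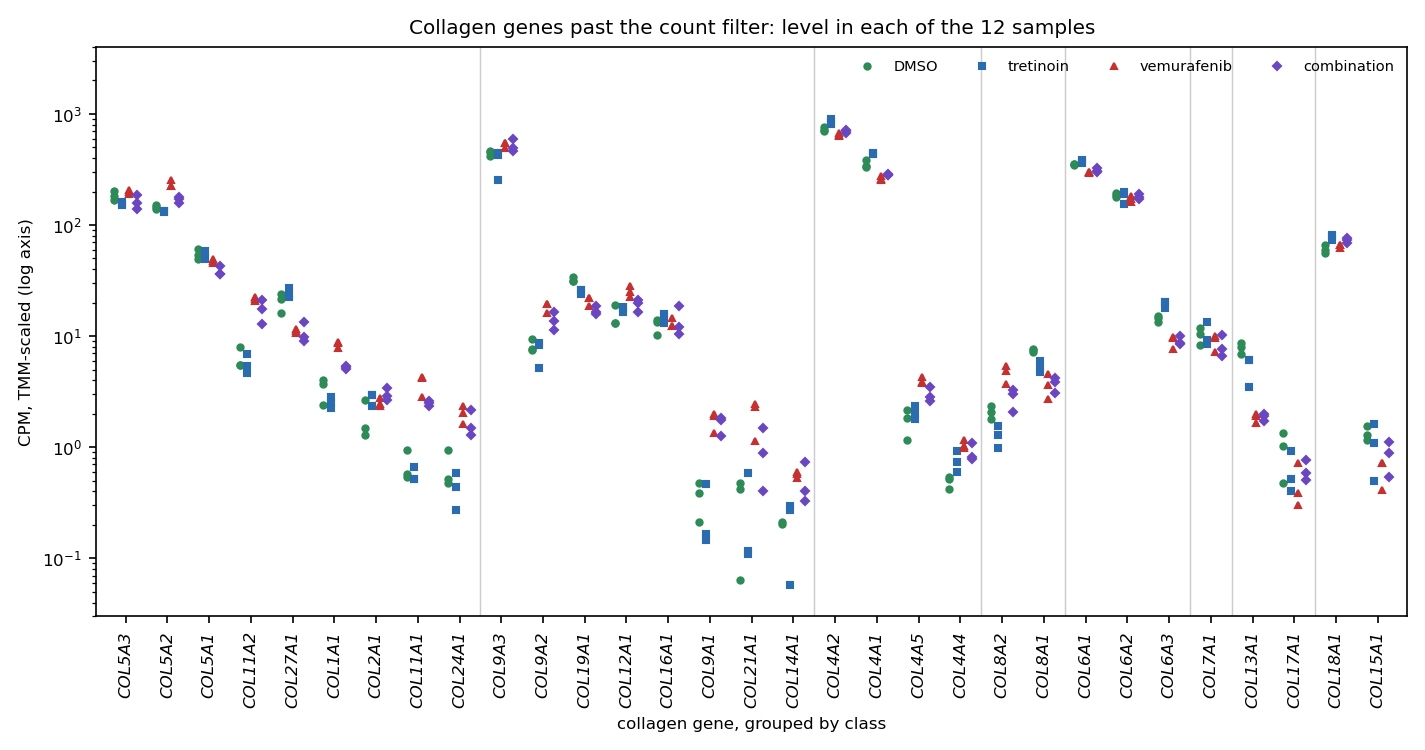
Level of the 31 tested collagen genes in each of the 12 samples, in TMM-scaled CPM on a log axis (1 point per sample, colour and shape by treatment, genes grouped by class between vertical lines; COL14A1 in DMSO replicate 1 is at 0 and is not drawn). COL4A2, COL9A3, COL4A1 and COL6A1 lie highest, and the vemurafenib and combination points separate upward for COL11A1 and COL11A2 and downward for COL13A1.

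Vemurafenib against DMSO asks what inhibition of BRAF alone does. Of 31 collagen genes tested, 13 rose, where 26.4% of all tested genes rose, and 9 fell, where 26.3% fell; the median log2 fold change was 0.11 over the collagens and 0.02 over all genes. COL14A1, COL21A1, COL24A1 and COL9A1 passed the count filter only through libraries with vemurafenib and so had to be higher there. This makes their values below a description. Over the other 27 collagens 9 rose and 9 fell, with a median of 0.05. These 27 include COL4A4, which reached the level of the filter in no DMSO library. The shares of all genes, here and below, were not recomputed without genes that passed only through libraries with vemurafenib. Scaling by total counts alone shifted the median of all genes up by 0.19, and then 17 collagens were called higher and 6 lower. The share of all genes called under that scaling was not computed, so these counts have no background to be read against. With all genes split by level into 4 equal groups, 1 of 8 collagens in the highest group rose (13.5% of all genes there) and 3 of 8 fell (47.4%).

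Among the fibrillar chains, 5 of 9 rose with vemurafenib and 1 fell, where 26.4% of all genes rose and 26.3% fell; without COL24A1, which passed the filter only through libraries with vemurafenib, 4 of 8 rose. COL11A1, a minor chain that joins fibrils in cartilage, read 0.58, 0.54 and 0.95 CPM in the DMSO samples, 0.513, 0.523 and 0.657 with tretinoin, 4.21, 4.33 and 2.82 with vemurafenib and 2.48, 2.37 and 2.58 with the combination. The vemurafenib samples all lay above the DMSO samples, 5.35-fold on average (log2 fold change 2.42 ± 0.26 SE, adjusted p = 5.71e-07), and the combination samples lay between those groups and apart from DMSO (log2 fold change 1.8 ± 0.27 SE, adjusted p = 2.8e-05). COL11A2, its partner chain in type XI collagen, read 7.99, 5.54 and 5.49 CPM in the DMSO samples, 4.69, 6.92 and 5.42 with tretinoin, 20.7, 21.6 and 22.4 with vemurafenib and 21, 17.6 and 12.9 with the combination. It rose with both vemurafenib (log2 fold change 1.77 ± 0.17 SE, adjusted p = 1.94e-07) and the combination (log2 fold change 1.44 ± 0.18 SE, adjusted p = 2.6e-06), without overlap with DMSO.

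The start of COL11A1, the fibrillar chain with the largest rise, is shown with its GC boxes (GGGCGG on either strand) in capitals, at 142, 128 and 40 bases before the RefSeq start (GRCh38.p14, chr1:103108473-103108772, minus strand).
COL11A1: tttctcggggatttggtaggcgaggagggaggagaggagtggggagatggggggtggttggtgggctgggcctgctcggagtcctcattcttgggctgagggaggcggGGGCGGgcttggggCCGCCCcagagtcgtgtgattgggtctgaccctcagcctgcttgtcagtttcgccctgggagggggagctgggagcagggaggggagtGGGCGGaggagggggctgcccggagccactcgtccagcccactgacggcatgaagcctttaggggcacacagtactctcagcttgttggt
The same motif is in 45.0% of 35116 RefSeq start windows of this length (250 bases before and 50 after each start) and in 24 of the 44 windows that 32 collagens have (no window was used for COL14A1, COL1A1, COL1A2, COL20A1, COL22A1, COL2A1, COL3A1, COL5A2, COL6A1, COL6A5, COL8A1 and COL9A3), and a match describes letters only.

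COL1A1, the major chain of type I collagen, stood low in A375 and read 2.38, 3.71 and 4.06 CPM in the DMSO samples, 2.27, 2.5 and 2.85 with tretinoin, 8.88, 7.79 and 8.65 with vemurafenib and 5.28, 5.44 and 5.07 with the combination. It rose with vemurafenib (log2 fold change 1.3 ± 0.16 SE, adjusted p = 3.57e-06) and less with the combination (log2 fold change 0.62 ± 0.17 SE, adjusted p = 0.0052); all treated samples of both groups were above the DMSO samples. Its partner COL1A2 stayed at 2 to 22 counts per library and was not tested. COL24A1, a fibrillar chain with a short interruption of its helix, read 0.516, 0.473 and 0.95 CPM in the DMSO samples, 0.44, 0.581 and 0.274 with tretinoin, 2.34, 2.02 and 1.62 with vemurafenib and 1.49, 1.3 and 2.17 with the combination. Its samples with vemurafenib (log2 fold change 1.58 ± 0.34 SE, adjusted p = 0.000714) and with the combination (log2 fold change 1.31 ± 0.34 SE, adjusted p = 0.00345) were all above those with DMSO, at a level where a few counts decide the value.

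Type V collagen, which sits within type I fibrils and limits their width, was the fibrillar type with the highest levels. COL5A2 read 140, 145 and 150 CPM in the DMSO samples, 134, 130 and 133 with tretinoin, 223, 253 and 223 with vemurafenib and 180, 173 and 159 with the combination. Among the 8 collagens of the highest level group it was the 1 that rose with vemurafenib (log2 fold change 0.68 ± 0.07 SE, adjusted p = 3.01e-07), although COL9A3, COL5A3 and COL18A1 were also called higher under total counts alone, and the combination samples fell between DMSO and vemurafenib without overlapping either (log2 fold change 0.23 ± 0.07 SE, adjusted p = 0.00907). COL5A2 made up 37.9 ± 1.85% of the type V counts in DMSO and 48.6 ± 1.95% with vemurafenib (SD, n = 3; exact two-sided permutation p = 0.1, the smallest possible). COL5A3 read 181, 168 and 204 CPM in the DMSO samples, 154, 161 and 152 with tretinoin, 189, 199 and 208 with vemurafenib and 185, 157 and 141 with the combination and its samples overlapped between DMSO and each drug group except tretinoin (log2 fold change 0.11 ± 0.09 SE, adjusted p = 0.339 with vemurafenib). COL5A1 read 36.1 to 42.7 CPM with the combination and 49.3 to 60.3 CPM in DMSO, a fall (log2 fold change -0.5 ± 0.09 SE, adjusted p = 0.00014).

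COL27A1, a fibrillar chain of developing cartilage, went the other way and read 23.9, 16.2 and 21.5 CPM in the DMSO samples, 22.4, 26.9 and 23.6 with tretinoin, 11.6, 11.2 and 10.8 with vemurafenib and 13.5, 9.89 and 9.05 with the combination. Vemurafenib (log2 fold change -0.88 ± 0.15 SE, adjusted p = 7.76e-05) and the combination (log2 fold change -0.94 ± 0.15 SE, adjusted p = 3.63e-05) both placed every sample below every DMSO sample. COL2A1, the main cartilage chain, rose with the combination (log2 fold change 0.73 ± 0.24 SE, adjusted p = 0.016), but not without DMSO replicate 2 (0.56, adjusted p = 0.0761), DMSO replicate 3 (0.58, adjusted p = 0.0875) or combination replicate 1 (0.63, adjusted p = 0.0593).

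**Figure D2:**
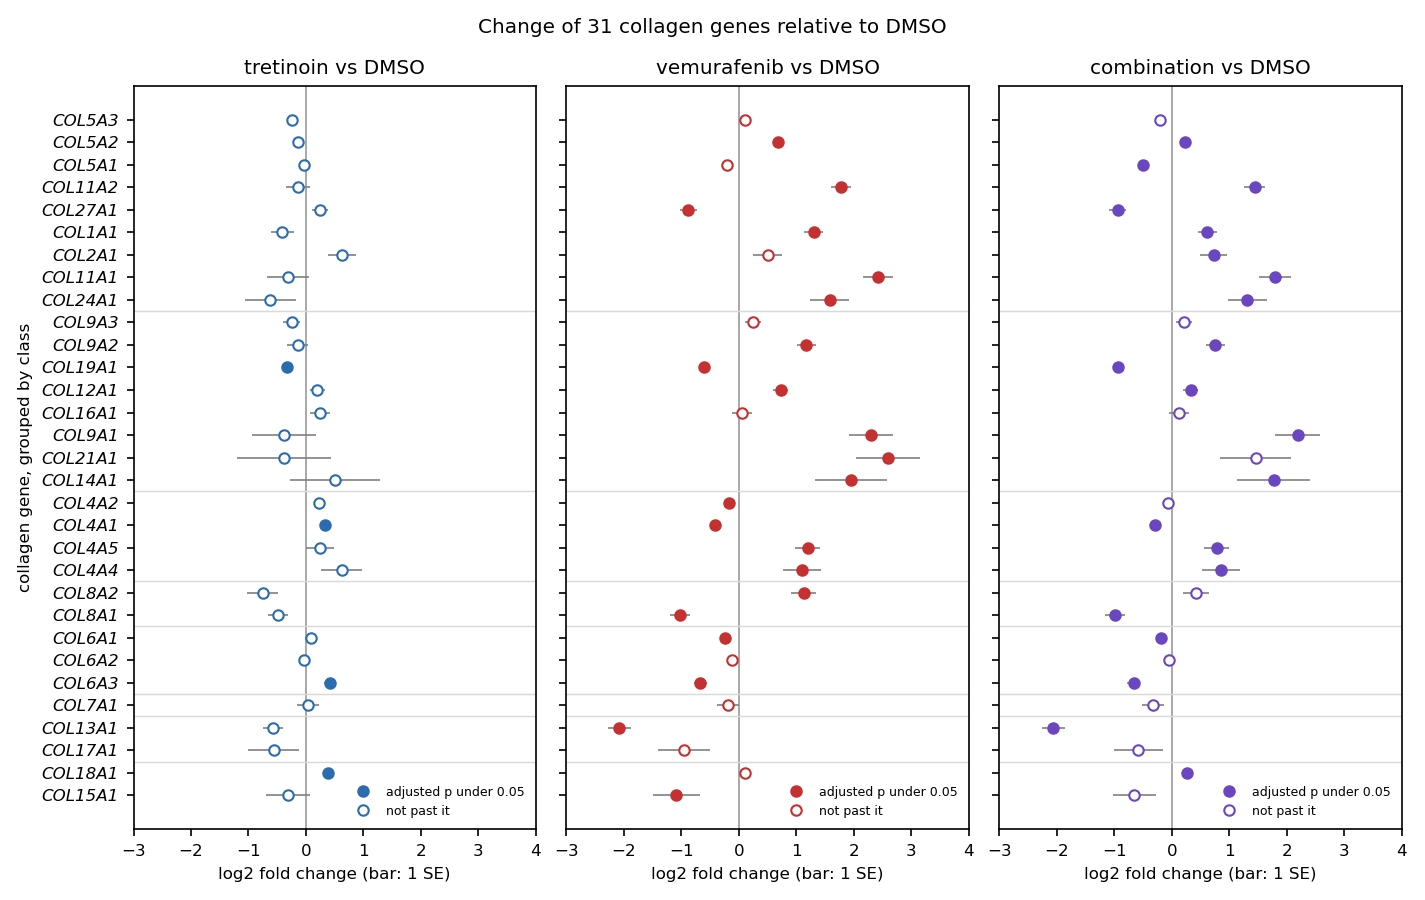
Log2 fold change of the 31 tested collagen genes relative to DMSO for tretinoin, vemurafenib and the combination (points: edgeR estimate, bars: 1 SE, filled where the adjusted p is below 0.05, genes grouped by class). COL21A1, COL11A1 and COL9A1 lie farthest right (COL21A1 and COL9A1 passed the count filter only through libraries with vemurafenib) and COL13A1 farthest left with vemurafenib, and COL4A2 is at -0.17 with TMM scaling but at 0.03 when libraries are scaled by total counts alone.

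Of 8 fibril-associated collagens, 5 rose with vemurafenib and 1 fell (26.4% and 26.3% of all genes). Of the 5 that pass the filter without libraries containing it, 2 rose and 1 fell, for which no matching share of all genes was computed. Type IX collagen, which coats cartilage fibrils, has 3 chains, and they differed in level by orders of magnitude. COL9A1 read 0.387, 0.473 and 0.211 CPM in the DMSO samples, 0.147, 0.465 and 0.164 with tretinoin, 1.92, 1.35 and 1.98 with vemurafenib and 1.82, 1.76 and 1.27 with the combination. COL9A1 passed the filter only through libraries with vemurafenib, so its higher level there is no independent result (log2 fold change 2.3 ± 0.39 SE, adjusted p = 8.67e-05 for vemurafenib and log2 fold change 2.19 ± 0.39 SE, adjusted p = 0.000137 for the combination). COL9A2 read 9.47, 7.63 and 7.49 CPM in the DMSO samples, 5.13, 8.25 and 8.6 with tretinoin, 16.1, 19.6 and 19.5 with vemurafenib and 16.6, 13.7 and 11.4 with the combination. It rose with vemurafenib (log2 fold change 1.17 ± 0.17 SE, adjusted p = 1.34e-05) and with the combination (log2 fold change 0.76 ± 0.17 SE, adjusted p = 0.001), without overlap with DMSO. COL9A3 read 466, 451 and 420 CPM in the DMSO samples, 256, 423 and 443 with tretinoin, 497, 552 and 546 with vemurafenib and 588, 491 and 463 with the combination. Its difference with vemurafenib did not pass the test (log2 fold change 0.25 ± 0.14 SE, adjusted p = 0.147) although the 3 samples lay above the DMSO samples, and scaling by total counts alone gave a call (0.45, adjusted p = 0.0103), as did leaving out tretinoin replicate 1 (0.25, adjusted p = 0.00456), fitting the compared groups alone (0.26, adjusted p = 0.00122) and removing the count filter (0.24, adjusted p = 0.0267). The reading of 256 CPM in tretinoin replicate 1, the library that stood apart, was the lowest of the 12.

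COL21A1, a small fibril-associated chain, read 0.0644, 0.473 and 0.422 CPM in the DMSO samples, 0.587, 0.116 and 0.11 with tretinoin, 2.44, 2.31 and 1.14 with vemurafenib and 1.49, 0.883 and 0.407 with the combination. Its estimate with vemurafenib was the largest of the tested collagens, with the filter passed only through libraries with the drug (log2 fold change 2.59 ± 0.56 SE, adjusted p = 0.000854), while the combination samples spread from 0.407 to 1.49 CPM and overlapped DMSO. COL14A1, which binds fibrils in skin and tendon, read 0, 0.203 and 0.211 CPM in the DMSO samples, 0.293, 0.0581 and 0.274 with tretinoin, 0.571, 0.529 and 0.601 with vemurafenib and 0.33, 0.743 and 0.407 with the combination. Its rise with vemurafenib (log2 fold change 1.95 ± 0.63 SE, adjusted p = 0.0153) and with the combination (log2 fold change 1.77 ± 0.64 SE, adjusted p = 0.0264) rested on DMSO replicate 1, without which the values were 1.41 (adjusted p = 0.0625) and 1.24 (adjusted p = 0.103); without combination replicate 2 the latter was 1.34 (adjusted p = 0.138). COL12A1, a relative of COL14A1, rose from 13.2, 13.2 and 18.9 CPM in DMSO to 25.1, 28 and 22.4 CPM with vemurafenib (log2 fold change 0.73 ± 0.13 SE, adjusted p = 0.000179).

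The combination value of COL12A1 was smaller (log2 fold change 0.33 ± 0.13 SE, adjusted p = 0.0458) and lost its call without DMSO replicate 1 or 2, tretinoin replicate 2 or 3, vemurafenib replicate 1, or combination replicate 1 or 2 (values of 0.23 to 0.33, adjusted p of 0.0508 to 0.197), while it was 0.53 without DMSO replicate 3 (adjusted p = 0.00237). COL19A1, a chain of the basement membrane zone whose gene lies tail to tail with COL9A1 on chromosome 6, 5084 bases away, fell with vemurafenib and with the combination. DMSO samples held 31.3, 34 and 31.2 CPM of COL19A1, vemurafenib samples 18.8, 22.2 and 22 (log2 fold change -0.61 ± 0.09 SE, adjusted p = 2.03e-05) and combination samples 18.6, 16.4 and 15.8 (log2 fold change -0.93 ± 0.09 SE, adjusted p = 1.82e-07). COL16A1 did not pass the test in any comparison (0.05 ± 0.17 with vemurafenib, SE).

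Type IV collagen was represented mainly by COL4A1 and COL4A2, which form the common basement membrane network. Their genes lie head to head on chromosome 13 (GRCh38, GENCODE 29), with COL4A1 on the minus strand from 110148963 to 110307233 and COL4A2 on the plus strand from 110305812 to 110513209. The RefSeq starts are 127 bases apart, so that 1 window around the COL4A2 start (chr13:110307034-110307333, plus strand) holds both, and it is printed because both chains are read from it in opposite directions, with its GC box, 65 bases before the COL4A2 start, in capitals.
COL4A2: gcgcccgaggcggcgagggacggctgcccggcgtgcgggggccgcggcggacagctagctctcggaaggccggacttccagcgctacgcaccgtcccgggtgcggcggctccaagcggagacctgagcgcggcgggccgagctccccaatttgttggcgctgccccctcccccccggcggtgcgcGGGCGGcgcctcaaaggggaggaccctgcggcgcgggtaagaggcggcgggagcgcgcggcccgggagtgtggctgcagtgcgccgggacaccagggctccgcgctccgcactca
The window is 77.7% G and C, against a median of 58.7% over all start windows.

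COL4A1 read 337, 330 and 384 CPM in the DMSO samples, 438, 442 and 436 with tretinoin, 257, 278 and 254 with vemurafenib and 282, 288 and 281 with the combination. It rose with tretinoin (log2 fold change 0.33 ± 0.07 SE, adjusted p = 0.00957), and fell with vemurafenib (log2 fold change -0.41 ± 0.07 SE, adjusted p = 8.04e-05) and with the combination (log2 fold change -0.3 ± 0.07 SE, adjusted p = 0.00127), each without overlap with DMSO. COL4A2 read 713, 707 and 766 CPM in the DMSO samples, 815, 900 and 850 with tretinoin, 629, 675 and 641 with vemurafenib and 712, 704 and 673 with the combination. It lay below DMSO in all vemurafenib samples (log2 fold change -0.17 ± 0.07 SE, adjusted p = 0.0449), a call lost without DMSO replicate 1 or 3, vemurafenib replicate 1 or 3, or combination replicate 2 or 3 (values of -0.14 to -0.19, adjusted p of 0.0502 to 0.161) and that turned to 0.03 (adjusted p = 0.75) when scaled by total counts alone. The combination did not shift COL4A2 detectably (log2 fold change -0.07 ± 0.07 SE, adjusted p = 0.434). The balance of the pair needs no scaling between libraries: COL4A1 made up 32.4 ± 0.83% of their joint counts in DMSO, 33.9 ± 1.03% with tretinoin, 28.9 ± 0.43% with vemurafenib and 29 ± 0.55% with the combination (SD, n = 3). The samples of both vemurafenib groups lay below all DMSO samples (exact two-sided permutation p = 0.1, the smallest possible), and tretinoin overlapped DMSO (exact permutation p = 0.2).

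**Figure D3:**
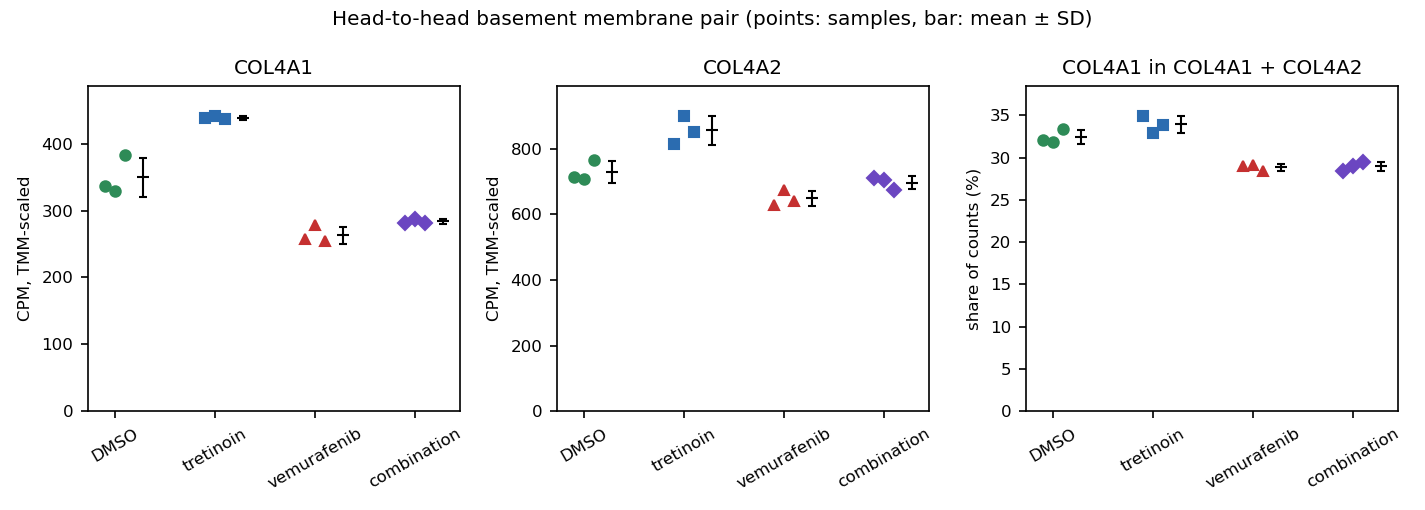
Level of COL4A1 and COL4A2 in TMM-scaled CPM, and COL4A1 as a percent of the joint counts of both, in each of the 12 samples (points: samples, bars beside them: mean ± SD of 3). Tretinoin samples are highest for both genes, and the COL4A1 share is 28.4 to 29.5% with vemurafenib or the combination and 31.8 to 35.0% otherwise; the fall of COL4A2 with vemurafenib is absent (0.03) under scaling by total counts alone.

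The minor type IV chains, found in kidney, lung and eye basement membranes, moved the opposite way at much lower levels. COL4A4 read 0.516, 0.54 and 0.422 CPM in the DMSO samples, 0.733, 0.93 and 0.603 with tretinoin, 0.987, 1.16 and 1.02 with vemurafenib and 1.1, 0.79 and 0.815 with the combination. Its rise with vemurafenib (log2 fold change 1.1 ± 0.33 SE, adjusted p = 0.00891) kept its call without any 1 library, whereas that with the combination (log2 fold change 0.86 ± 0.33 SE, adjusted p = 0.036) lost it without DMSO replicate 1, 2 or 3 or combination replicate 1 or 3 (values of 0.71 to 0.93, adjusted p of 0.0529 to 0.13). No DMSO sample of COL4A4 reached the level of the count filter, while 3 did in each treated group. Its higher level than in DMSO is thus no independent result. COL4A5, the chain mutated in X-linked Alport syndrome, read 1.16, 2.16 and 1.85 CPM in the DMSO samples, 2.35, 1.8 and 2.03 with tretinoin, 3.9, 3.75 and 4.33 with vemurafenib and 3.47, 2.6 and 2.85 with the combination. It rose with vemurafenib (log2 fold change 1.2 ± 0.22 SE, adjusted p = 0.000155) and with the combination (log2 fold change 0.78 ± 0.22 SE, adjusted p = 0.00679). COL4A3 and COL4A6, the head-to-head neighbours of COL4A4 and COL4A5, were below the count filter.

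Type VI collagen, a beaded filament around cells, had 2 chains among the highest and 1 far below them. COL6A1 read 352, 355 and 350 CPM in the DMSO samples, 361, 381 and 374 with tretinoin, 296, 299 and 301 with vemurafenib and 308, 300 and 323 with the combination. It fell with vemurafenib (log2 fold change -0.24 ± 0.06 SE, adjusted p = 0.00296) and with the combination (log2 fold change -0.18 ± 0.06 SE, adjusted p = 0.0163), without overlap, although under total counts alone these were -0.04 (adjusted p = 0.514) and -0.02 (adjusted p = 0.768), and the combination call was lost without combination replicate 2 (-0.16, adjusted p = 0.0733). COL6A2 read 192, 180 and 186 CPM in the DMSO samples, 153, 200 and 191 with tretinoin, 162, 170 and 181 with vemurafenib and 189, 180 and 171 with the combination and passed no test. COL6A3, a large chain of the same filament, read 14.7, 13.4 and 15.2 CPM in the DMSO samples, 20.1, 17.9 and 20.2 with tretinoin, 9.82, 9.62 and 7.69 with vemurafenib and 8.75, 8.5 and 10.1 with the combination. It rose with tretinoin (log2 fold change 0.42 ± 0.11 SE, adjusted p = 0.0295) and fell with vemurafenib (log2 fold change -0.67 ± 0.12 SE, adjusted p = 9.58e-05) and the combination (log2 fold change -0.66 ± 0.11 SE, adjusted p = 9.23e-05), so that the tretinoin and vemurafenib samples lay on opposite sides of DMSO. The tretinoin call was lost without DMSO replicate 1 (0.44, adjusted p = 0.0604), DMSO replicate 2 (0.37, adjusted p = 0.138) or tretinoin replicate 3 (0.39, adjusted p = 0.0589). As a share of type VI counts, COL6A3 was 2.61% in DMSO, 3.4% with tretinoin, 1.89% with vemurafenib and 1.82% with the combination (means, n = 3).

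The 2 tested chains of the short-chain class parted. COL8A1 read 7.15, 7.43 and 7.6 CPM in the DMSO samples, 5.94, 4.77 and 5.15 with tretinoin, 4.52, 2.74 and 3.6 with vemurafenib and 3.85, 4.23 and 3.08 with the combination. It fell with vemurafenib (log2 fold change -1.03 ± 0.17 SE, adjusted p = 8.3e-05) and with the combination (log2 fold change -0.99 ± 0.17 SE, adjusted p = 9.96e-05). COL8A2, the chain that pairs with it in the cornea, read 1.8, 2.09 and 2.38 CPM in the DMSO samples, 1.54, 1.28 and 0.986 with tretinoin, 3.69, 5.34 and 4.81 with vemurafenib and 2.09, 3.25 and 3.03 with the combination. It rose with vemurafenib (log2 fold change 1.13 ± 0.22 SE, adjusted p = 0.000311), and the combination samples overlapped DMSO (log2 fold change 0.42 ± 0.23 SE, adjusted p = 0.132).

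COL13A1, a membrane-spanning collagen of cell adhesion sites, had the largest fall. It read 8.64, 6.96 and 7.92 CPM in the DMSO samples, 3.52, 6.04 and 6.08 with tretinoin, 1.66, 1.97 and 1.92 with vemurafenib and 1.71, 2 and 1.9 with the combination. The vemurafenib samples stood 4.22-fold below DMSO (log2 fold change -2.08 ± 0.2 SE, adjusted p = 1.3e-07) and the combination samples at the same level (log2 fold change -2.06 ± 0.2 SE, adjusted p = 1.12e-07), and the 3 tretinoin samples also lay below DMSO without passing the test (log2 fold change -0.57 ± 0.17 SE, adjusted p = 0.0661). The tretinoin difference was called by DESeq2 (-0.582, adjusted p = 0.0493), with the count filter removed (-0.575, adjusted p = 0.023) and without tretinoin replicate 3 (-0.691, adjusted p = 0.044). The lowest tretinoin reading, 3.52 CPM, was that of replicate 1, the library that stood apart. The start window of COL13A1 is printed as that of the chain with the largest fall, with the TATAAA motif, 236 bases before the RefSeq start, in capitals (GRCh38.p14, chr10:69801656-69801955, plus strand).
COL13A1: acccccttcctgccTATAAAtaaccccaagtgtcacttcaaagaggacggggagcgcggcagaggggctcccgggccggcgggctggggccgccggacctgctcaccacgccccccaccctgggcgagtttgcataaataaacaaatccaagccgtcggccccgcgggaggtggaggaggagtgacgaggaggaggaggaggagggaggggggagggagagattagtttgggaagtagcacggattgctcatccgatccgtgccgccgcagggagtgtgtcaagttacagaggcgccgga
TATAAA is in 11.5% of all start windows on either strand and in 8 of 44 windows of collagens; the AP-1 motif TGANTCA is in 7.71% of all windows and in 1 of the 44. The retinoic acid response elements made of AGGTCA repeated in the same direction with 5 or with 2 bases between, both strands searched, were in none of the collagen windows and in 0.00570% and 0.00285% of all windows.

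COL17A1, which anchors skin cells, and COL7A1, the anchoring fibril, passed no test. COL15A1, an endostatin-type chain of vessel basement membranes, read 1.29, 1.55 and 1.16 CPM in the DMSO samples, 1.1, 1.63 and 0.493 with tretinoin, 0.415, 0.722 and 0.721 with vemurafenib and 0.88, 1.11 and 0.543 with the combination. Its fall with vemurafenib (log2 fold change -1.09 ± 0.41 SE, adjusted p = 0.0313) was lost without DMSO replicate 1 (-1.12, adjusted p = 0.0579), DMSO replicate 2 (-0.98, adjusted p = 0.0966) or vemurafenib replicate 1 (-0.87, adjusted p = 0.124), and with total counts alone (-0.90, adjusted p = 0.0721). COL18A1, the source of endostatin, rose from 55.7 to 65.5 CPM in DMSO to 73.5 to 81.6 CPM with tretinoin (log2 fold change 0.38 ± 0.07 SE, adjusted p = 0.00545) and to 68.8 to 75.7 CPM with the combination (log2 fold change 0.27 ± 0.07 SE, adjusted p = 0.00515). Of its exon bases, 16.4% overlap SLC19A1 on the other strand, and counting ignored the strand, so its counts are uncertain in that stretch.

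Tretinoin alone moved few collagens. COL4A1, COL6A3 and COL18A1 rose, 3 of 31 where 3.48% of all genes rose, and COL19A1 fell (log2 fold change -0.33 ± 0.09 SE, adjusted p = 0.0371), 1 where 2.20% fell. COL4A2 was just outside the threshold (log2 fold change 0.23 ± 0.07 SE, adjusted p = 0.0536), with all tretinoin samples above DMSO. It was called higher by DESeq2 (0.22, adjusted p = 0.00795), with at least 10 counts in every sample (0.24, adjusted p = 0.0451) and with total counts alone (0.30, adjusted p = 0.00773). The same held without tretinoin replicate 1 (0.26, adjusted p = 0.0113). The median was -0.13 over the collagens and 0.01 over all genes, and total counts alone gave 4 higher and 0 lower, for which no share of all genes was computed. The COL19A1 samples with tretinoin, 24.1, 26.1 and 26.1 CPM, were all below DMSO, but the call was lost without DMSO replicate 1, 2 or 3, tretinoin replicate 1 or 2, vemurafenib replicate 2 or combination replicate 2 (values of -0.29 to -0.35, adjusted p of 0.0532 to 0.165). Without DMSO replicate 2, COL4A1 was no longer called either (0.28, adjusted p = 0.067), which left 1 collagen called higher. Leaving out tretinoin replicate 1, the library that stood apart, ended 1 of the 4 calls, that of COL19A1 (-0.30, adjusted p = 0.077).

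The combination against DMSO gave 13 collagens higher (27.1% of all genes rose) and 8 lower (26.5% fell), with medians of 0.21 over the collagens and 0.03 over all genes; over the 27 that pass the filter without libraries containing vemurafenib, 10 rose and 8 fell, with a median of -0.05. Total counts alone moved the median of all genes up by 0.16 and gave 16 higher and 6 lower, with COL4A1 no longer called (-0.14, adjusted p = 0.0961). The share of all genes called under that scaling was not computed. COL18A1 and COL2A1 were called higher and COL5A1 lower here and not with vemurafenib, and COL21A1 and COL8A2 (higher) and COL15A1 and COL4A2 (lower) were called with vemurafenib and not here; these comparisons share the DMSO samples, and a call in 1 of them only does not show a difference.

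The direct comparison of the combination with vemurafenib asks what tretinoin adds. None of the 31 collagens was called higher (2.27% of all genes were; 0 were called by DESeq2) and 2 were lower (2.20% of all genes). At an unadjusted p below 0.05, edgeR gave 1 collagen higher and 12 lower. The share of all genes at that threshold was not computed, so these counts have no background to be read against. COL5A2 was lower by 0.45 on the log2 scale (log2 fold change -0.45 ± 0.07 SE, adjusted p = 0.000489) and COL1A1 by 0.68 (log2 fold change -0.68 ± 0.15 SE, adjusted p = 0.0112), in each case with all 3 combination samples below all 3 vemurafenib samples. COL1A1 was not called without vemurafenib replicate 1 (-0.64, adjusted p = 0.0635) or combination replicate 3 (-0.66, adjusted p = 0.0589). The count of 2 rose to 8 without tretinoin replicate 1 and to 5 without combination replicate 1, and was 1 without combination replicate 3. The share of all genes called in these fits was not computed. Just outside the threshold were COL8A2 (log2 fold change -0.71 ± 0.2 SE, adjusted p = 0.0538), COL5A1 (log2 fold change -0.31 ± 0.09 SE, adjusted p = 0.0665) and COL19A1 (log2 fold change -0.31 ± 0.09 SE, adjusted p = 0.0706). The median was -0.13 over the collagens and 0.00 over all genes.

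**Figure D4:**
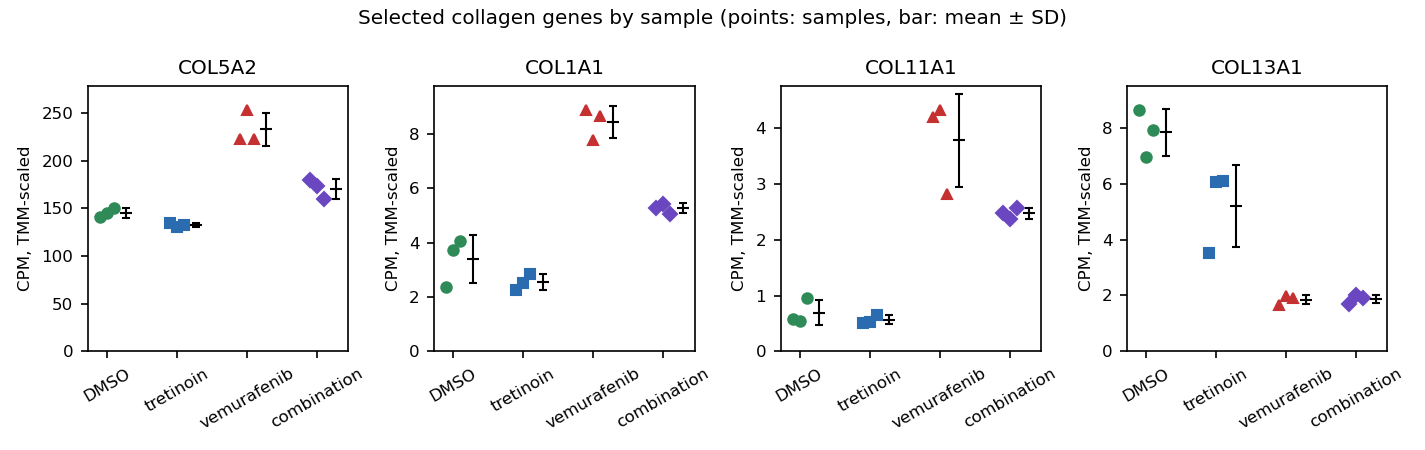
Level of COL5A2, COL1A1, COL11A1 and COL13A1 in TMM-scaled CPM in each of the 12 samples (points: samples, bars beside them: mean ± SD of 3; axes start at 0). For COL5A2, COL1A1 and COL11A1 the combination samples lie between DMSO and vemurafenib, and for COL13A1 the combination and vemurafenib samples share a level of 1.66 to 2 CPM.

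Against tretinoin, the combination had 11 collagens higher (24.1% of all genes) and 9 lower (25.0%), with medians of 0.05 and 0.02; over the 27 that pass the filter without libraries containing vemurafenib, 8 were higher and 9 lower. COL8A2 (log2 fold change 1.17 ± 0.25 SE, adjusted p = 0.000878) and COL9A3 (log2 fold change 0.46 ± 0.14 SE, adjusted p = 0.0136) were higher here. COL9A3 was 0.24 without tretinoin replicate 1 (adjusted p = 0.0147) and was lost without combination replicate 1 (0.35, adjusted p = 0.0808). COL4A5 (log2 fold change 0.53 ± 0.21 SE, adjusted p = 0.0492) lost its call without DMSO replicate 3, tretinoin replicate 2 or 3, vemurafenib replicate 1, 2 or 3, or combination replicate 1 or 3 (values of 0.41 to 0.55, adjusted p of 0.0594 to 0.166). COL21A1 (log2 fold change 1.84 ± 0.66 SE, adjusted p = 0.028) lost its call without tretinoin replicate 2 (1.48, adjusted p = 0.106), tretinoin replicate 3 (1.44, adjusted p = 0.112), combination replicate 1 (1.35, adjusted p = 0.138) or combination replicate 2 (1.85, adjusted p = 0.0541), and was 2.92 without tretinoin replicate 1 (adjusted p = 0.00275). COL8A1 (log2 fold change -0.5 ± 0.18 SE, adjusted p = 0.0268) was lost without tretinoin replicate 1 (-0.42, adjusted p = 0.0701) or combination replicate 3 (-0.39, adjusted p = 0.113).

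The interaction, the effect of tretinoin in the presence of vemurafenib minus that in its absence, was called for 0 of the 31 collagens by edgeR (0.382% of all genes higher and 0.424% lower) and for 0 by DESeq2. At an unadjusted p below 0.05, edgeR gave 7 (COL5A2, COL12A1, COL6A3, COL4A1, COL4A5, COL5A1 and COL8A1) and DESeq2 4. How many of all genes passed that unadjusted threshold was not computed, so these numbers do not show an interaction of collagens. The lowest adjusted p of edgeR, 0.157, was that of COL5A2 (-0.32 ± 0.10, SE). Without DMSO replicate 3, COL12A1 was called (-0.81, adjusted p = 0.0296).

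The 13 collagens below the filter were COL26A1, COL1A2, COL28A1, COL4A3, COL3A1, COL23A1, COL22A1, COL10A1, COL25A1, COL4A6, COL20A1, COL6A6 and COL6A5. COL3A1, the fibrillar chain of soft tissue and of fibroblasts, read at most 0.529 CPM. COL28A1, a small chain of nerve basement membranes, had 0, 2 and 0 counts in DMSO, 0, 1 and 0 with tretinoin, 5, 8 and 1 with vemurafenib and 16, 14 and 10 with the combination. With the filter removed it was higher in the combination than in DMSO (3.79 ± 0.84, SE, adjusted p = 5.57e-05, edgeR quasi-likelihood), on counts so small that the fold itself is uncertain, and COL25A1 was lower with vemurafenib (-3.08 ± 1.03, SE, adjusted p = 0.0161).

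Of the genes that make, modify and cross-link collagen, 31 of 35 listed were tested; 10 rose and 9 fell with vemurafenib (26.4% and 26.3% of all genes), 11 rose and 10 fell with the combination (27.1% and 26.5%), and 2 rose with tretinoin (3.48%). Proline hydroxylases split, P4HA2 rising from 28.1 to 31.3 CPM in DMSO to 35.7 to 44.6 with vemurafenib (0.41, adjusted p = 0.00073) and P4HA1 and P3H2 falling (-0.31, adjusted p = 0.00162, and -0.82, adjusted p = 1.91e-06). The collagen chaperone SERPINH1 did not pass the test (0.03 with vemurafenib, adjusted p = 0.76). LOXL4, a cross-linking enzyme, had the largest change of the list with tretinoin, and TLL2, listed under propeptide removal, had the largest with vemurafenib (1.43, adjusted p = 0.00288). LOXL4 read 49.8, 42.6 and 46 CPM in DMSO, 208, 189 and 182 with tretinoin, 57.2, 61.2 and 60.6 with vemurafenib and 184, 192 and 169 with the combination. Tretinoin raised it with and without vemurafenib (2.06, adjusted p = 1.96e-11, and 1.61 for the combination against vemurafenib, adjusted p = 4.14e-10). LOXL2 likewise rose with tretinoin (0.57, adjusted p = 8.08e-05), and LOXL3 fell with vemurafenib (-1.14, adjusted p = 2.3e-09) but not detectably with tretinoin (-0.07, adjusted p = 0.631).

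Of 11 listed collagen receptors, 9 were tested; 3 rose and 5 fell with vemurafenib (26.4% and 26.3% of all genes), 2 rose and 4 fell with the combination (27.1% and 26.5%), and 1 rose and 1 fell with tretinoin (3.48% and 2.20%). The kinases that bind collagen rose with vemurafenib, DDR2 from 110 to 126 CPM in DMSO to 218 to 259 (1, adjusted p = 4.27e-08) and DDR1 from 145 to 159 CPM to 236 to 246 (0.67, adjusted p = 6.58e-08). The integrin subunits fell, ITGA1 from 58.6 to 69.7 CPM to 28.9 to 33 (-1.07, adjusted p = 3.06e-07) and ITGA2 from 27 to 33.7 CPM to 15.8 to 18.2 (-0.79, adjusted p = 1.56e-05). ITGA2 rose and DDR1 fell with tretinoin (0.58, adjusted p = 0.00342, and -0.37, adjusted p = 0.00136), opposite to vemurafenib for each.

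Of 15 listed matrix partners of collagen, 14 were tested; 5 rose and 3 fell with vemurafenib (26.4% and 26.3% of all genes), 5 rose and 2 fell with the combination (27.1% and 26.5%), and 3 rose with tretinoin (3.48%). The small proteoglycan BGN rose from 81.6 to 94.5 CPM in DMSO to 159 to 160 with vemurafenib (0.86, adjusted p = 2.04e-07), and LUM from 0.838 to 1.22 CPM to 3.27 to 3.94 (1.76, adjusted p = 5.2e-06). FBN1, a microfibril protein, rose too (1.21, adjusted p = 9.8e-09), and ELN, elastin, and FN1, fibronectin, fell (-1.17, adjusted p = 0.00664, and -0.40, adjusted p = 0.00744). FMOD, a proteoglycan that binds type I fibrils, had no counts in the DMSO samples and 0.831 to 1.02 CPM with vemurafenib. It passed the count filter without help from any DMSO library, so its higher level is no independent result, although it is among the 5 that rose with vemurafenib and with the combination. The lists of related genes were not recounted without genes of this kind.

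**Figure D5:**
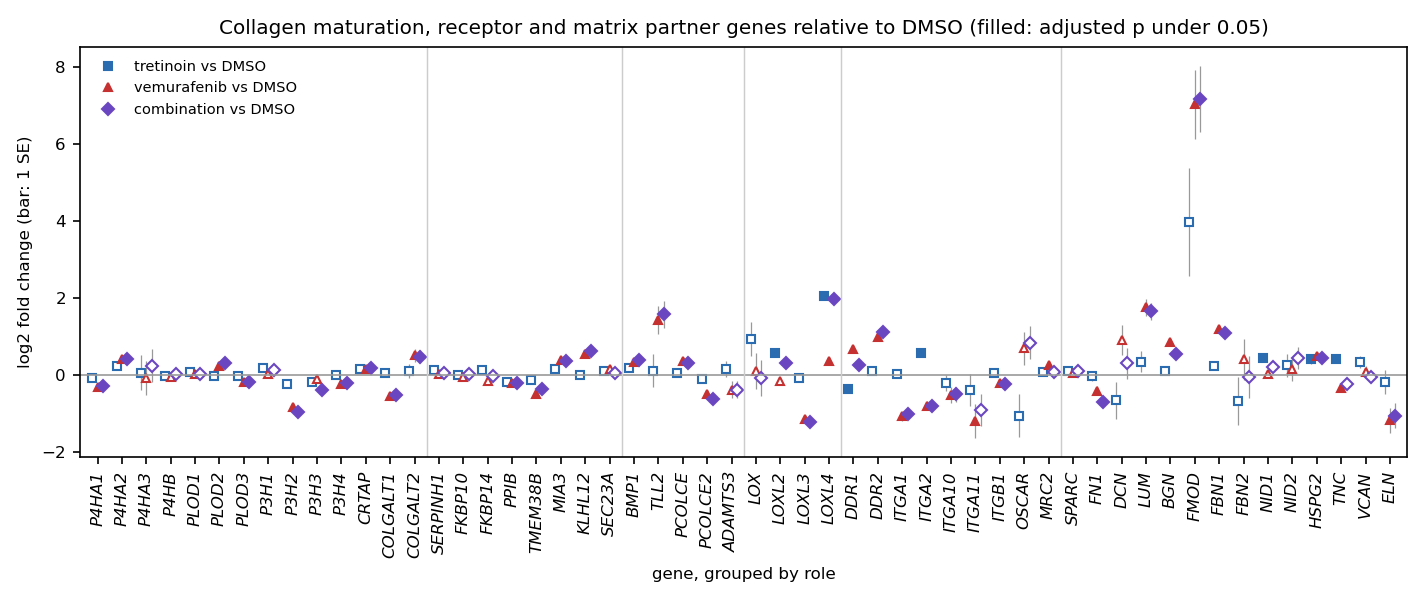
Log2 fold change relative to DMSO of the tested genes for collagen maturation, receptors and matrix partners, grouped by role between vertical lines (points: edgeR estimate, bars: 1 SE, filled where the adjusted p is below 0.05; colours are the 3 treatments). LOXL4 lies near 2 with tretinoin and the combination, and ITGA1 and LOXL3 near -1 with vemurafenib; the value of FMOD depends on the prior count, since DMSO had none.

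A375 is a single line, and listed markers of other cell types were read in it, of which some rose and some fell. Melanoma or melanocyte markers summed to 25.9 to 30.8 CPM in DMSO and 42.1 to 44.0 with vemurafenib. Of the 7 listed, 3 were tested with a median log2 fold change of 0.02, and MITF alone was called higher. Of 6 fibroblast markers, 5 were tested, and the summed level of the list was 13.1 to 15.3 CPM in DMSO, 16.5 to 18 with tretinoin, 41 to 42.4 with vemurafenib and 31.4 to 36.6 with the combination. PDGFRB (1.68, adjusted p = 1.16e-10) and LUM rose with vemurafenib, and THY1, a defining marker, stayed below 0.23 CPM in every sample. With the combination, FAP, LUM and PDGFRB were called higher. Endothelial markers summed to 5.29 to 6.55 CPM in DMSO and 2.40 to 3.17 with vemurafenib, with CDH5 lower (-4.96, adjusted p = 2.02e-09) and VWF higher (2.13, adjusted p = 0.00132), epithelial markers to 2.14 to 6.09 CPM over all samples, and immune markers to 0.838 to 4.73. PTPRC, the 1 immune marker tested, was called higher with tretinoin (1.46), vemurafenib (1.36) and the combination (1.77). The part of these markers in the collagen changes was not tested.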

How the data were processed

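The authors isolated poly(A) RNA, sequenced libraries made with a directional kit, aligned reads with STAR 2.5.3a to GRCh38.p10 and counted fragments on GENCODE 27 genes over the union of exons, ignoring strand. The deposited values are these raw counts, 1 file per sample and not normalized. Ignoring strand means that reads over exons shared by genes on opposite strands cannot be assigned; of collagens this touches mainly COL18A1.

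Of 58347 genes in the files, 58084 were matched to GENCODE 29 for symbols and positions. Rows of few counts were removed with filterByExpr by treatment group (about 0.553 CPM in at least 3 samples), which left 16740 genes. Libraries of 13510235 to 21534377 counts were scaled by TMM in edgeR 4.0.16 (R 4.3.3), and all 12 samples entered 1 quasi-likelihood model with treatment as its only term. Contrasts set the 3 treated groups against DMSO, set the combination against either single drug, and tested the interaction. Benjamini-Hochberg adjustment was over all genes of a comparison, with a threshold of 0.05, and the SE is the size of the log2 fold change over the square root of F. The members and the lists of related genes were chosen with earlier results of these data known, and no set or enrichment test was run. Shares and sums were compared by exact two-sided permutation tests. Per-kilobase levels divide by the union of exons. Values in every sample are given for genes called in any comparison with a log2 fold change of at least 1 in size, and for the 5 collagens highest per kilobase; other genes are given with their values where a comparison turns on them.

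The fit was tested on simulated counts of 16361 genes with 200 changed in the combination against DMSO. It recovered 35 of 50 changes of 1.5-fold, 37 of 50 of 2-fold, and 45 of 50 of 3-fold and of 4-fold, with 8 false calls. All 1.5-fold and 3-fold changes were increases and all 2-fold and 4-fold changes decreases, so fold and direction cannot be separated. In the data 27.1% of all genes rose and 26.5% fell with the combination, so recovery at such a share was not measured. Alternatives were DESeq2 1.42.0, its size factors in edgeR, total counts, no filter, at least 10 counts in every sample, the replicate number as a block, only the groups compared, each library left out, and the longest transcript as the length. Start sequences and motif positions are from RefSeq (GRCh38.p14). Permutation tests and sums were computed in Python 3.11.15 with scipy 1.17.1, and tables with pandas 2.3.3.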

Additional observations from a re-analysis of the deposited data

How the results depend on the processing

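Of 69 calls of collagen genes, 39 were kept in all 19 alternatives and 30 were lost in at least 1; 1 of them, COL4A2 with vemurafenib, also changed sign. A call also counted as lost where an alternative did not test the gene. The calls of COL11A1, COL24A1 and COL9A1, and those of COL21A1 and COL4A4 with vemurafenib against DMSO, were lost only in this way, when at least 10 counts were asked of every sample. For tretinoin against DMSO, 3 collagens were higher and 1 lower; with only the groups compared these were 0 and 0, the number lower was 2 with DESeq2, 2 with no filter, 0 with total counts and 0 with the replicate block, and leaving out 1 library gave 1 to 4 higher and 0 to 2 lower. For vemurafenib against DMSO, 13 higher became 7 when at least 10 counts were asked of every sample, and leaving out 1 library gave 13 to 15 higher and 7 to 10 lower. For the combination against DMSO, 13 higher became 8 with at least 10 counts, and the range without 1 library was 11 to 16 higher and 7 to 10 lower. Against tretinoin, 11 higher became 7 with at least 10 counts, with 8 to 12 higher and 8 to 11 lower without 1 library. That filter removes low chains, so fewer were tested. For the combination against vemurafenib, 2 lower became 6 with DESeq2, 4 with total counts, 6 with no filter and 8 with only the groups compared, with 1 to 8 lower and 0 to 0 higher without 1 library. The interaction had 0 lower, 1 with no filter, and 0 to 1 lower and 0 to 0 higher without 1 library. The share of all genes called was not computed for any alternative, so these counts show how calls moved and have no background to be read against. Other causes were not tested. The interaction needs all groups, so it has no fit with only the groups compared.

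The labels number replicates 1 to 3 in each group, but same-numbered samples did not deviate together (mean correlation -0.0312 over 18 pairs, range -0.143 to 0.0872; 0.0154 over 36 pairs with different numbers), and 2 of 12 samples correlated best with their own number. Against DMSO, the replicate block gave 2 higher and 0 lower with tretinoin, 13 higher and 8 lower with vemurafenib, and 12 higher and 8 lower with the combination. The share of all genes called with the block was not computed. Depth limits the chains near 1 CPM, whose SE reached 0.64 for COL14A1 against 0.06 for COL6A1 in the combination.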

Other observations

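Antisense genes and pseudogenes named after collagens, which are not members, held few reads. COL4A2-AS1 had 0 to 4 counts per library and COL6A4P1, a pseudogene of a type VI chain, 0 to 7, while COL18A1-AS1, COL18A1-AS2, COL4A2-AS2, COL5A1-AS1 and COL6A4P2 had at most 2 and COL11A2P1 had 0 in all libraries.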
